A study of Mus musculus with 8 samples.

Results

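RNA levels were compared between hair matrix keratinocytes of wild-type (WT) mice given 5-aza and the same cells of untreated WT mice. The comparison rests on 4 of the 8 libraries in the study, 2 untreated and 2 from mice given 5-aza. It covers the 26200 genes, mitochondrial genes left out, whose identifier stands in both of the authors' tables, 1 for untreated and 1 for 5-aza libraries. Treated mice received 50 µg of 5-aza under the skin at postnatal day 2.5, and skin of both groups was taken at postnatal day 4.5, when matrix cells were sorted by flow cytometry. The other 4 libraries came from Tet2/Tet3 double-knockout mice (DKO) carrying Krt14-Cre, a recombinase driven by the keratin 14 promoter of stratified epithelia, again 2 untreated and 2 after 5-aza. They enter the estimate of spread and are given beside WT where a result calls for it. The labels give no strain, age beyond these days or sex for the WT mice, do not say that the 2 libraries of a group came from separate animals, and do not say that the WT mice lack the Cre. The p-values therefore measure the spread between these libraries, which may be technical.

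5-aza names the cytidine analogues that are built into nucleic acid and trap DNA methyltransferases, so that methylation is lost as cells divide. DNA methylation at CpG-rich promoters keeps a set of germ cell genes silent in body tissues, and it marks one parental copy of the control regions of imprinted genes. The hair matrix is the dividing epithelium at the base of the follicle, wrapped around the dermal papilla, and its daughters form the inner root sheath and the hair shaft. TET proteins oxidise 5-methylcytosine and so act on the same mark.

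The 2 tables list different genes, only 1 of them holds mitochondrial genes, and every library of 1 treatment stands in the same table, so an effect of 5-aza and a difference between the tables cannot be told apart. The labels name an mRNA kit and a kit for total RNA without ribosomal RNA, and tie neither to a group. Shared genes held 12729890 and 14122102 reads in the untreated WT libraries and 18280485 and 17257464 in the 5-aza WT libraries. Each library was rescaled so that its FPKM (fragments per kilobase of transcript, scaled to depth) over the shared genes sum to 1000000, and these rescaled units, which are per length, are used throughout. 3 reads in a gene of median length were worth 0.246 to 0.374 units in WT. Rn7sk, a small nuclear RNA without a poly(A) tail, took 1.18% and 1.46% of the units in untreated WT libraries and 7.03% and 6.65% in 5-aza libraries. Pseudogenes took 5.49% and 6.04% in untreated libraries and 2.24% in both 5-aza libraries. Tet3 was at 139 and 119 units in untreated WT and 72.0 and 75.6 in untreated DKO libraries, and Tet2 at 37.9 and 34.3 against 28.3 and 26.3. The untreated WT libraries were also unlike in sex-linked RNA: the first had 964 units of Xist and 0.182 of Ddx3y, the second 3.42 and 36.6. Both 5-aza WT libraries held Xist (270 and 384 units) and Ddx3y (19.8 and 15.2). Dlx3, a factor of matrix and shaft differentiation, was present in all 4 WT libraries (772 to 2096 units). So were Krt5 of basal cells (3331 to 3889) and Mki67 of dividing cells (600 to 1326), which do not set the matrix apart from other epithelium. Defining markers of the dermal cells around the bulb were present as well, such as Col1a1 at 3131 and 8564 units in the untreated libraries.

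Large shifts in both directions separated the 2 groups, and among protein-coding genes the silent genes that came on included several of the germ line. A gene had a large shift where the lower value of the higher group, with 0.2 units added, was at least 4 times the higher value of the other group with the same addition, and both values of the higher group reached 2 units. By this rule 204 shared genes (0.779%) were higher after 5-aza and 1036 (3.95%) lower. Of the 1036 lower genes 746 were pseudogenes, 713 of them processed copies such as Rps18-ps3, at 235 and 302 units in untreated libraries and 2.23 and 0.797 after 5-aza. Among the 16587 protein-coding genes 82 (0.494%) were higher and 207 (1.25%) lower. Of these 23 and 58 had an exon that overlaps an exon of another gene, on either strand, so that the counting could split their reads; 59 (0.545%) and 149 (1.38%) were left among the 10823 protein-coding genes without such overlap. Of the genes named below, Hoxd10, Dpep3, Piwil4, Krt10, Krt75, Krt5, Corin, Gata3, Foxe1, Lef1, Hhip, Cebpb, Cdkn1a, Mest, Dnmt3a and Tet2, among others, have such an overlap. A gene was switched on where both untreated values were under 0.2 units and both 5-aza values at least 2, and switched off in the reverse case: 65 genes (0.248%) were on and 221 (0.844%) off. Of the protein-coding genes 11 (0.0663%) were switched on and 28 (0.169%) off. The 65 switched on included 20 miRNA genes and 10 pseudogenes, and the 221 switched off included 164 pseudogenes. In very short genes a few reads exceed 2 units: 3 reads in Trbj2-7, 46 bases long, were worth 22.1 units in the first 5-aza WT library. Beside these rules, limma was fitted to log2(units + 1) over 8 libraries, and "rose" and "fell" below mean an adjusted p under 0.05 over all genes tested. Of 21476 genes tested 2534 rose (11.8%) and 3879 fell (18.1%), 29.9% in all, with a median difference over all genes of -0.09. Limma called 45 of the 65 genes switched on. The shares over all tested genes are the background of every list below. This split depends on the scale: with values as deposited 484 rose and 7843 fell. Then 5.81% of called genes were higher instead of 39.5%, and the median moved to -0.41. Deposited values summed over the shared genes to 85136 and 95652 in untreated and to 62622 and 60172 in 5-aza WT libraries. Deposited values of a gene are thus lower after 5-aza where its share of that sum is unchanged. With median-ratio and protein-coding scaling 46.6% and 37.9% of called genes were higher, with medians of -0.02 and -0.10.

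**Figure D1:**
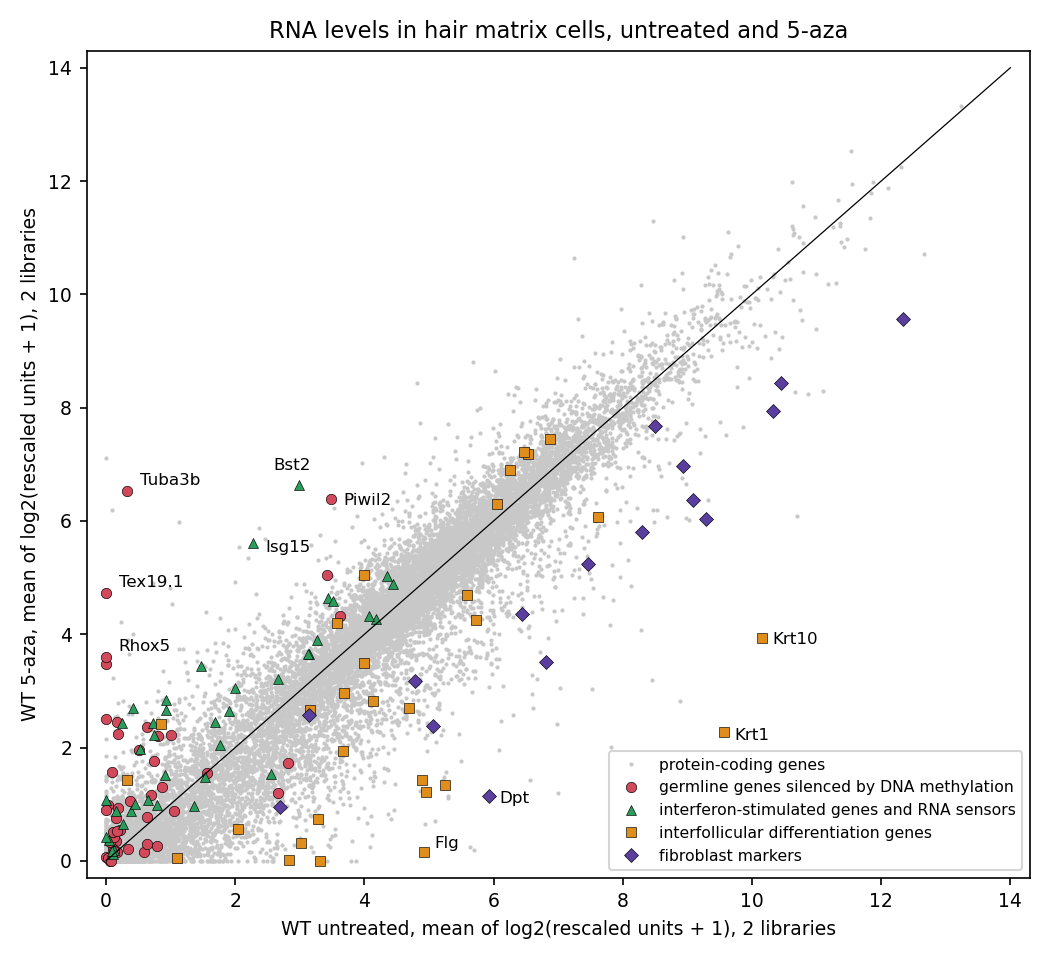
Mean log2(rescaled units + 1) of the 2 untreated WT libraries (x) and the 2 5-aza WT libraries (y), 1 grey point per protein-coding gene, with members of 4 gene lists in colour and the line of equal levels. Tuba3b, Tex19.1 and Rhox5 lie near 0 on the x axis and well above it on the y axis, and Krt1, Krt10, Flg and Dpt lie far below the line.

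The 11 protein-coding genes that were switched on were Tex19.1, Rhox5, Dpep3, Tex13b, Syce1, Ifit1, Hoxd10, Rnf183, Gsdma3, Wdr74 and Hgs. The first 5 are genes of testis or germ cells and Ifit1 is an interferon-stimulated gene, described with their groups below. Hoxd10, a homeobox gene of posterior identity, had no read in either untreated library and 2.80 and 2.40 units after 5-aza, at least 5.98-fold higher with 3 reads over the untreated group as the floor (log2 difference 1.85 ± 0.30 SE, limma adjusted p = 0.0076), but its exons overlap those of another gene on the same strand. Gsdma3, a gasdermin of skin epithelium, went from no read to 3.56 and 3.34 units, at least 14-fold higher by the same floor. Rnf183, a membrane ubiquitin ligase, was at 0.151 and 0.135 units, 1 read each, and at 7.36 and 4.69 after 5-aza. Wdr74, a factor in ribosome assembly, had no read in untreated WT libraries and 136 and 139 units after 5-aza. Hgs, of the endosomal sorting machinery, went from 2 reads in the first library and 0 in the second to 69.7 and 74.9 units. Both shifts were as wide in DKO: Wdr74 was at 0 and 0.234 units in untreated DKO and 143 and 156 after 5-aza, and Hgs at 0.113 and 0.0641 against 71.6 and 70.1. Hgs shares exon sequence with another gene model on its own strand. Both genes serve all cells, and the part of the tables in these shifts was not tested. Among the genes switched off, Klhl30, a relative of the adaptors of ubiquitin ligases, was at 12.7 and 14.6 units in untreated libraries and had no read after 5-aza, at least 74.4-fold lower (limma adjusted p = 0.000679). Others named by the same rule (Ndufs6b, Rps6-ps2, Tpi-rs11 and Cbx3-ps1) are pseudogenes.

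Several germ cell genes went from no or few reads to clear levels. Tex19.1, which restrains retrotransposons in germ cells and placenta, had no read in either untreated WT library and was at 31.4 and 20.5 units after 5-aza. Tuba3b, an alpha-tubulin of testis, went from 0.581 and 0 units, 2 reads in all, to 99.4 and 83.8. Syce1, a component of the synaptonemal complex that holds chromosomes together in meiosis, went from no read to 4.91 and 4.42 units. The promoter windows of these 3 genes are shown because their CpG sites are where DNA methylation can act; they run from 250 bases before to 50 after the RefSeq gene start on build GRCm38.p6, 5′ to 3′ on the gene's strand, with every CG in capitals.
Tex19.1 (chr11:121145893-121146192, plus strand): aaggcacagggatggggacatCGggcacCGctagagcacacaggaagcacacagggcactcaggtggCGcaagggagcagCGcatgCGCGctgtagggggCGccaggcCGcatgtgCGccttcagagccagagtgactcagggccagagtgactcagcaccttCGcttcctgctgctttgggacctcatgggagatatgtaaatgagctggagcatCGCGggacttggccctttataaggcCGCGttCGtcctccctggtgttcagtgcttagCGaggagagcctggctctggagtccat
Tuba3b (chr6:145615713-145616012, plus strand): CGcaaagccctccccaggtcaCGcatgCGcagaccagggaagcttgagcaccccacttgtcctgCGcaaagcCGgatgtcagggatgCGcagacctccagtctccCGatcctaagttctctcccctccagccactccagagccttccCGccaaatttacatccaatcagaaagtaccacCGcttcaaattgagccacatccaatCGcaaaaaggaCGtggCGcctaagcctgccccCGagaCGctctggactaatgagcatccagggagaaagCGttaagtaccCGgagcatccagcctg
Syce1 (chr7:140787805-140788104, minus strand): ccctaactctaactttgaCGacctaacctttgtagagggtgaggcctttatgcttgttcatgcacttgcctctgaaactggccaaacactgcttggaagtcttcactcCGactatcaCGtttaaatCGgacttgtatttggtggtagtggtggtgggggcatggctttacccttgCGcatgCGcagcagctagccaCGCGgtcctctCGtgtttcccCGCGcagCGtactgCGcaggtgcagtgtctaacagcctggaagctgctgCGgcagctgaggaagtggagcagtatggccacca
The windows hold 16, 16 and 14 CG. Of all 32851 windows of this length in the RefSeq table, 33.0% hold at least 16 and 36.3% at least 14, so these counts are not rare among mouse promoters. Of the 9 germline genes of the list below with a large shift higher, 6 have such a window. These windows hold 2 to 16 CG, the fewest in Tex19.2. Methylation was not measured here.

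By the files' coordinates on GRCm38 the genes lie at chr11:121146143-121148319 (Tex19.1), chr6:145615757-145621479 (Tuba3b) and chr7:140777229-140787852 (Syce1). Tex19.1 was at least 60.3-fold higher and Syce1 at least 10.5-fold higher with 3 reads over the untreated group as the floor. On the log2(units + 1) scale the differences were 4.72 ± 0.43 (SE, limma adjusted p = 0.00133) for Tex19.1, 6.20 ± 0.24 (adjusted p = 0.000143) for Tuba3b and 2.5 ± 0.26 (adjusted p = 0.00187) for Syce1; fitted values of genes at 0 depend on the added constant and are no bound. Rhox5 (chrX:37804842-37808876), a homeobox gene of testis and epididymis, had no read in untreated libraries and 10.8 and 11.3 units after 5-aza, at least 20.5-fold higher (adjusted p = 0.000728). Dpep3, a membrane dipeptidase of testis, went from no read to 9.63 and 10.5 units, at least 22.3-fold higher (adjusted p = 0.000622), but an exon of it overlaps another gene. Tex13b, an X-linked testis gene outside the list, went from 0.151 and 0 to 8.46 and 8.21 units. All 6 genes meet the rule for genes switched on or for large shifts, which itself requires both 5-aza values to lie above both untreated ones.

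The list of germline genes silenced by DNA methylation had 67 names, of which 45 are in both tables and 27 passed the filter of 1 unit in at least 2 libraries. Of those tested 16 rose and 1 fell, with a median log2 difference of 1.22, where 11.8% and 18.1% of all tested genes rose and fell with a median of -0.09. A silent member can pass the filter only through its 5-aza libraries, so these counts describe the members and do not test them. Large shifts higher were seen in 9 of the 45, switched-on genes in 4. Some members act in the piRNA pathway, which silences transposons in germ cells. Piwil2, a PIWI protein, was already present at 7.74 and 13.2 units and rose to 73.9 and 93.3, 7.99-fold (log2 difference 2.92, adjusted p = 0.00101). Piwil4, a second PIWI protein, rose from 0.404 and 0.450 to 2.69 and 3.06 units, though an exon of it overlaps another gene. Mael, Tdrd1, Mov10l1 and Fkbp6, further piRNA factors, rose to between 0.763 and 2.94 units from 0.852 or less. Of members that act on meiotic chromosomes, Stag3, a cohesin subunit, rose from 10.6 and 8.81 to 31.3 and 32.4 units, while Rec8, Smc1b, Spo11 and Hormad2 did not pass the test.

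Tex101, a surface protein of germ cells, rose from 0.301 and 0 to 3.76 and 3.71 units, and Tex19.2, the neighbour of Tex19.1, from 0.252 and 0 to 5.14 and 3.91. Tuba3b and Tuba3a, like Tex19.1 and Tex19.2 and many histone genes, are closely related copies, so how their reads were divided is uncertain. Slc25a31, an ADP/ATP carrier of sperm, and Tex15, needed for male meiosis, also rose. Brdt, a testis bromodomain protein, was the member that fell, from 5.80 and 4.95 to 1.97 and 0.791 units (adjusted p = 0.023). Many members stayed near 0: Ddx4 was at 0.0897 and 0.160 units before and 0.177 and 0.0633 after 5-aza, Dazl at 0.119 and 0.106 and then 0.703 and 0.670, and Dppa2 and Sycp2 had no read in either 5-aza library. The summed level of the 45 members was 58.5 and 54.0 units in untreated and 326 and 320 in 5-aza libraries. Tuba3b made up 99.4 and 83.8 units of the 5-aza sums, and Piwil2, given above, a part of similar size. Leaving out 1 library at a time left 10 to 12 members that rose, the fewest without the second 5-aza library, where 25 were tested. With the values as deposited 5 passed the filter and 4 of them rose. In DKO, whose 4 libraries are others but whose tables are the same, 16 members rose with a median of 1.21.

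**Figure D2:**
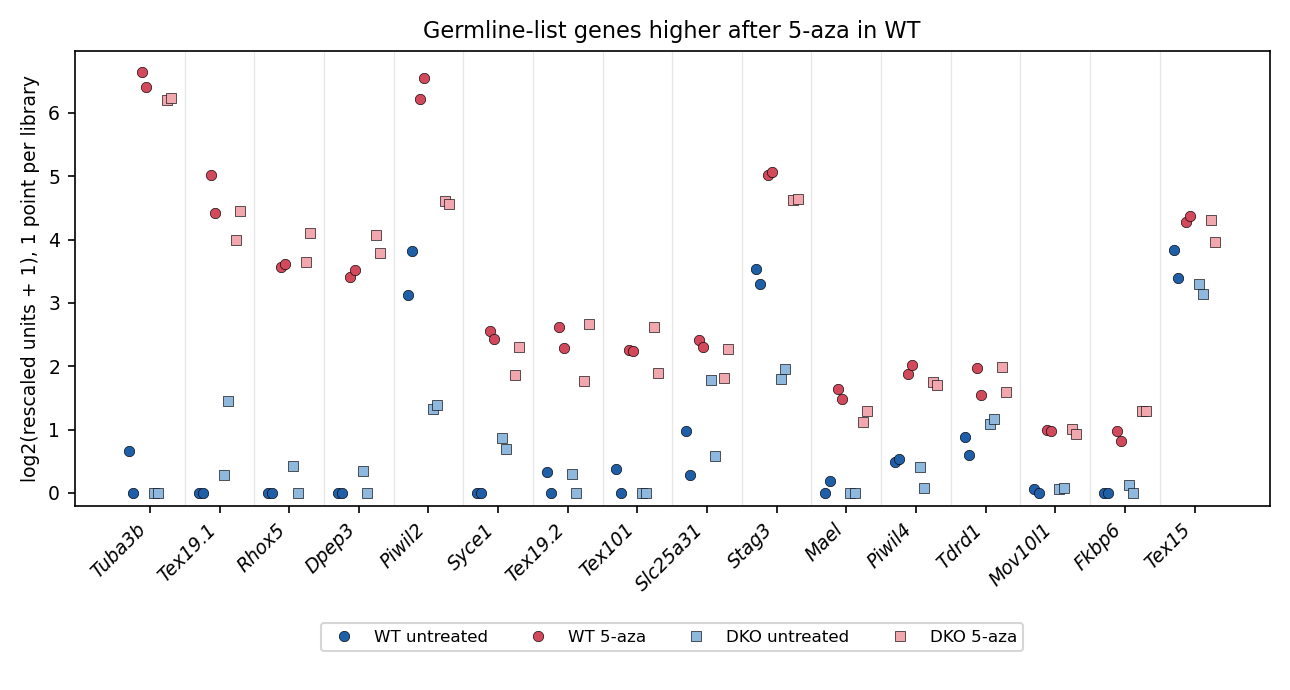
Log2(rescaled units + 1) in each of the 8 libraries for the 16 germline-list genes that rose in WT, circles for WT and squares for DKO, blue for untreated and red for 5-aza. Both 5-aza WT points lie above both untreated WT points in every gene shown; Tuba3b and Piwil2 reach the highest levels and Mov10l1 and Fkbp6 stay near 1.

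Some interferon-stimulated genes were also higher after 5-aza. Bst2 (tetherin, which holds budding virus at the cell surface) was at 7.31 and 6.52 units in untreated libraries and 110 and 88.3 after 5-aza. Isg15, a ubiquitin-like modifier, was at 3.41 and 4.26 and then 62.8 and 36.1. The windows of both promoters are shown for a motif of interferon response elements, GAAANNGAAA on either strand, in capitals; counting overlapping matches, Bst2 holds 2 and Isg15 holds 3.
Bst2 (chr8:71537423-71537722, minus strand): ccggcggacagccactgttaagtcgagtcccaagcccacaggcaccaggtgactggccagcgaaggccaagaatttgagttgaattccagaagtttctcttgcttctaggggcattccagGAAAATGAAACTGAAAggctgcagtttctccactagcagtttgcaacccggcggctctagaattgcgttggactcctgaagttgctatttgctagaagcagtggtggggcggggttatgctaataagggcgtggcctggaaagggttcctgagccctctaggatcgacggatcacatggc
Isg15 (chr4:156200769-156201068, minus strand): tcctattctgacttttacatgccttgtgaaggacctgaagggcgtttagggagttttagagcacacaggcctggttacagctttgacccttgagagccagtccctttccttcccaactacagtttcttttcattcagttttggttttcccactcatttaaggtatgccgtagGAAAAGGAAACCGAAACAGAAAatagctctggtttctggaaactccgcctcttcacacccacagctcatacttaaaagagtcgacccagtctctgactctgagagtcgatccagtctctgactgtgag
Of the 6 members of the list with a large shift higher, 5 (Bst2, Isg15, Ifit1, Gbp2 and Gbp3) hold this motif in their window and Oasl2 does not, against 3.44% of all 32851 windows of this length. The motif was chosen after the values were seen, and a match is a description of letters. The list is of interferon-stimulated genes, so a share above that of all windows says nothing about the shift. The share among the other members of the list was not counted.

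Bst2 rose 14.4-fold (log2 difference 3.66 ± 0.16 SE, limma adjusted p = 0.000143) and Isg15 12.9-fold (3.34 ± 0.49, adjusted p = 0.0058). Ifit1, which binds foreign RNA ends, was at 0.194 and 0.173 units, 1 read each, and 5.99 and 3.14 after 5-aza (adjusted p = 0.0174). Among the enzymes that sense double-stranded RNA, Oasl2 rose from 0.863 and 0.962 to 7.21 and 5.23 units (adjusted p = 0.00825) and Oas1a from 0.822 and 0.977 to 6.67 and 4.25. Guanylate-binding GTPases were higher as well, Gbp2 at 1.53 and 2.05 and then 10.5 and 9.20 units, Gbp3 at 0.435 and 0.431 and then 3.37 and 2.56. Among transcription factors of the pathway, Irf9 rose from 12.1 and 8 to 23.4 and 24.2 units, and Irf7 (adjusted p = 0.0934) and Stat2 (0.308) did not pass. Of the RNA sensors, Ddx58 (adjusted p = 0.0711), Ifih1 (0.926), Mavs (0.714) and Tlr3 (0.266) did not pass either. Iigp1, an interferon-induced GTPase outside the list that was chosen after its values were seen, rose from 0.255 and 0.152 to 4.92 and 7.43 units. Of the 40 members 33 were tested, 15 rose and 1, Cmpk2, fell, with a median of 0.72, beside 11.8% and 18.1% of all tested genes. Members near 0 in untreated libraries, such as Ifit1, Gbp3 and Oasl2, pass the filter only through their 5-aza libraries, so this count too is a description. The summed level was 169 and 157 units in untreated and 449 and 385 in 5-aza libraries.

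Between 8 and 11 members rose when 1 library was left out, 8 without the first untreated library and 9 without the second 5-aza library. With values as deposited 8 passed the filter and 3 rose. Several members, Gbp2, Usp18, Irf9, Ifi35, Parp14 and Adar among those that rose, have an exon that overlaps another gene. Immune cell markers did not move the same way: of 15 tested 7 fell and 1, H2-Eb1, rose, their summed level was 87.7 and 121 units in untreated and 71.7 and 61.4 in 5-aza libraries, and Ptprc, the pan-leukocyte marker, was at 0.415 units or less in the 4 libraries; 3 fell without the second 5-aza library. The part of immune cells in the interferon counts was not tested. In DKO 18 members of the interferon list rose, with a median of 0.93.

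**Figure D3:**
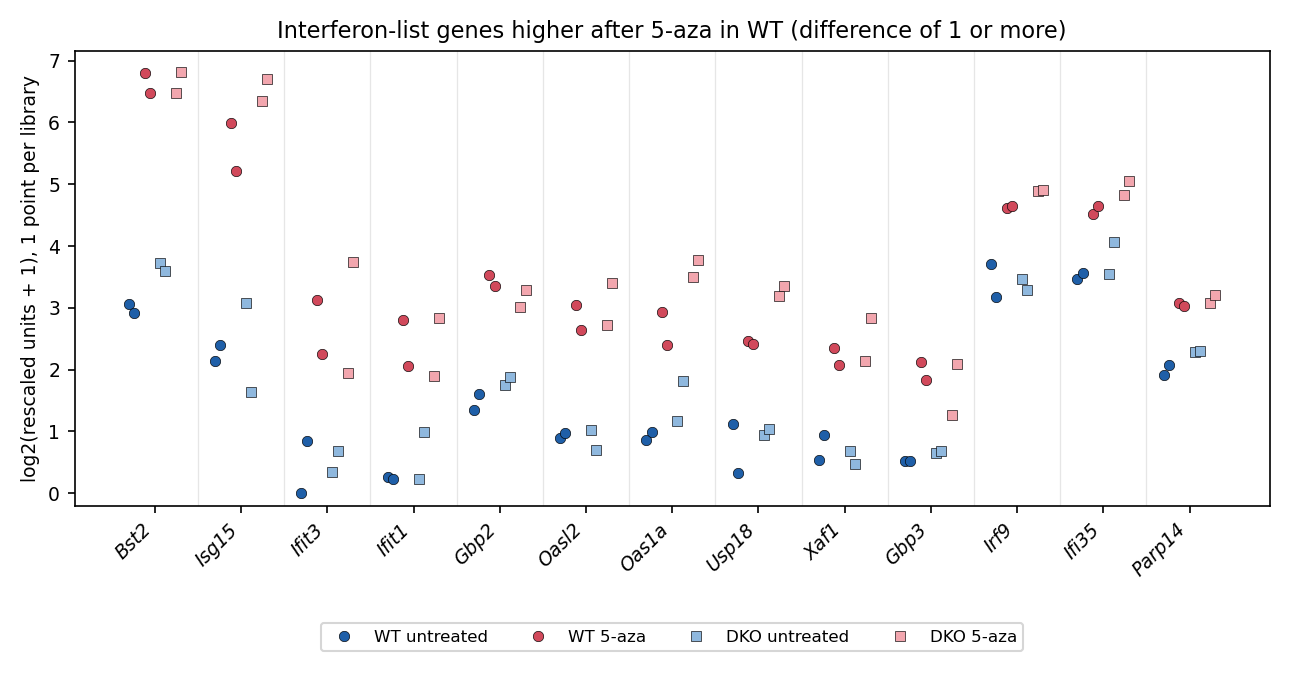
Log2(rescaled units + 1) in each of the 8 libraries for the interferon-list genes that rose by at least 1 on the log2 scale in WT, with the same symbols as for the germline genes. Bst2 and Isg15 reach the highest levels in both WT 5-aza libraries, and Parp14 and Ifi35 differ least.

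Other genes with large shifts higher belong to no single list; apart from Bglap3 and Fabp4 they were chosen after their values were seen, among protein-coding genes without exon overlap. Bglap3, a relative of osteocalcin, went from 2.18 and 1.01 to 112 and 102 units, 67-fold (log2 difference 5.41 ± 0.25 SE, limma adjusted p = 0.000165). Dapl1, an epithelial differentiation gene, rose from 2.52 and 0.374 to 58.2 and 65.6 units. Fgf5, the growth factor that ends the growth phase of hair, rose from 0.166 and 1.33 to 20.2 and 41.7 units (adjusted p = 0.00239). Wnt8a, a Wnt ligand, was present at 26.6 and 28.0 units and rose to 450 and 263, 13.1-fold. Krt42, a type I keratin, rose from 0.199 and 0.354 to 17.8 and 7.42 units. Fabp4, a fatty acid carrier best known from fat cells, rose from 2.81 and 3.58 to 64.6 and 31.9 units. By contrast 2 of the 4 adipocyte markers tested, Cd36 and Lpl, fell. The adipocyte list had 11 names, of which 10 are in both tables. The large-shift rule by which these 6 genes were taken requires the lower 5-aza value to be above the higher untreated value.

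Among the lower genes, those of the differentiating interfollicular epidermis had some of the largest shifts. Krt1 (chr15:101845426-101850794), the type II keratin of suprabasal epidermis, was at 1296 and 446 units in untreated and 5.13 and 2.84 in 5-aza libraries, 219-fold lower (log2 difference -7.29 ± 0.71 SE, limma adjusted p = 0.00157). Its partner Krt10 was at 1970.1 and 663 and then 17.4 and 11.7 units (adjusted p = 0.00243). Flg, which packs keratin filaments, was at 83.7 and 9.92 units and then 0.246 and 0. Krt77 went from 43.5 and 31.6 to 1.62 and 1.41 units and Krtdap from 46.8 and 19.3 to 1.10 and 1.54. The first untreated library was the higher in all 5. All 5 had a large shift lower, a rule that requires both untreated values to lie above both 5-aza values. Stfa3, a cysteine protease inhibitor of the epidermis outside the list chosen after its values were seen, fell from 649 and 343 to 8.28 and 4.43 units. The list had 39 names, of which 30 are in both tables. Of these 30 members, all tested, 9 fell and 3 rose, with a median of -1.39 and large shifts lower in 6. The members that rose, Ppl, Grhl1 and Grhl3, encode an envelope plakin and a pair of epithelial transcription factors. Without the first untreated library 5 fell, 6 rose and the median was -0.37; without the second 17 fell and it was -1.92. Without the second 5-aza library 4 fell, and without the first 5.

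Markers of dermal cells were lower too, and in these bulk libraries fewer cells of a type and less RNA per cell cannot be told apart. Of 16 fibroblast markers 14 fell and none rose, with a median of -2.30; their summed level was 7272 and 16020 units in untreated and 2864 and 1382 in 5-aza libraries. Dpt, dermatopontin of the dermal matrix, fell from 39.2 and 91.0 to 1.97 and 0.633 units, 50-fold, and Col6a1, a collagen VI chain, from 522 and 743 to 102 and 40.7. The count depended on single libraries: without the second untreated library 3 of 16 fell, and without the second 5-aza library 5. Of 20 dermal papilla markers 12 fell, among them Corin, a protease of the papilla, from 160 and 141 to 35.1 and 16.4 units; 2 fell without the second 5-aza library and 3 without the first untreated library. Of 16 endothelial and mural markers 6 fell, and of 9 skeletal muscle markers 5, such as Acta1 from 19.6 and 12.1 to 0.660 and 0.531 units. Leaving out 1 library left 1 to 5 of the endothelial markers that fell and 3 to 4 of the muscle markers, the fewest without the second 5-aza library. Of 6 erythroid markers 2 fell, none without the second untreated or the second 5-aza library, and of 10 Schwann and Merkel markers 3 fell, where 1 fell and 2 rose without the first untreated library, and 1 fell without the second untreated or the second 5-aza library. The erythroid list had 10 names, of which 6 are in both tables. None of 14 melanocyte markers passed in either direction. Their summed level was 569 and 669 units in untreated and 2046 and 571 in 5-aza libraries, so the first 5-aza library stood apart. The part of these cells in the other results was not tested.

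**Figure D4:**
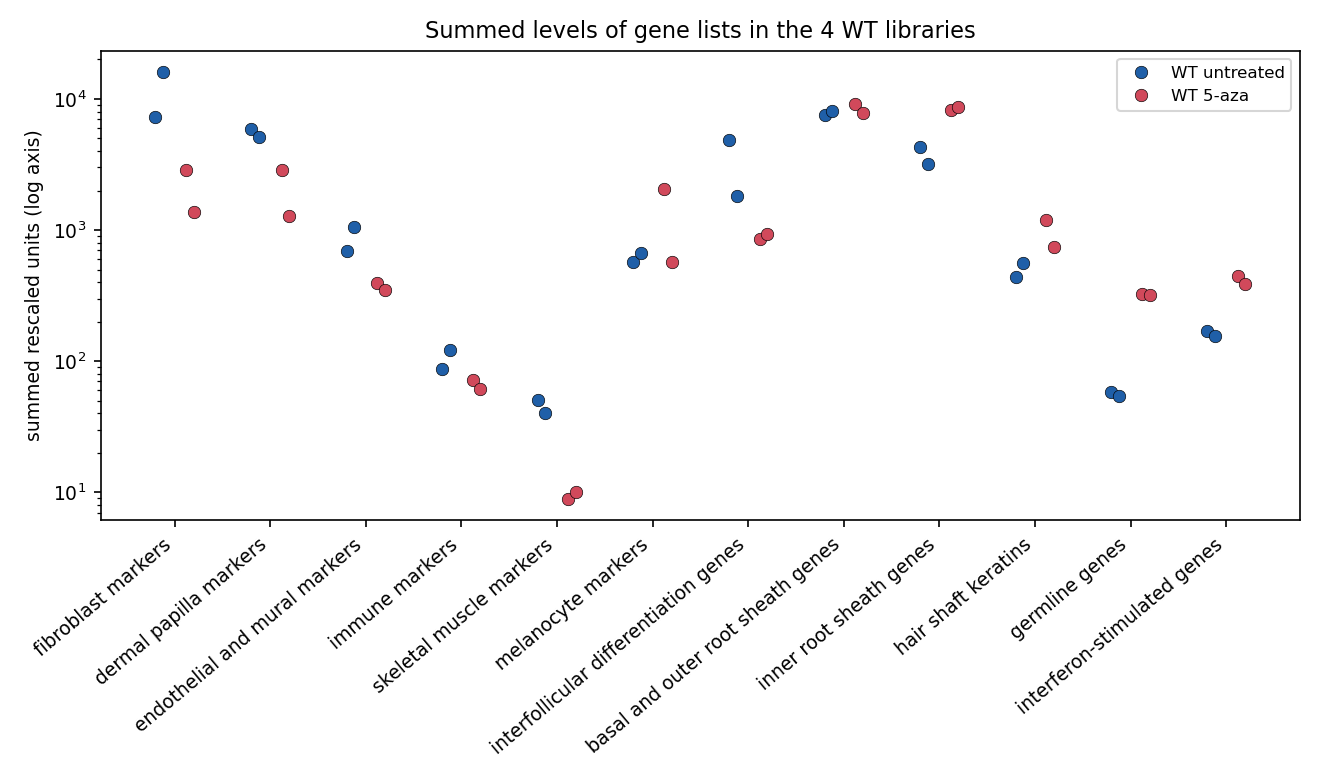
Summed rescaled units (log axis) of 12 gene lists in the 4 WT libraries, blue for untreated and red for 5-aza, 1 point per library. Fibroblast, dermal papilla, endothelial, immune, muscle and interfollicular sums are lower in both 5-aza libraries, germline, interferon, inner root sheath and hair shaft sums are higher, and the melanocyte sum is high in 1 of the 2.

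Genes of the follicle's own lineages rose in part. Of 25 inner root sheath genes 9 rose and 1 fell, with a median of 0.75, beside 11.8% and 18.1% of all tested genes. The member that fell was Krtdap, given above with the epidermal genes, from 46.8 and 19.3 to 1.10 and 1.54 units. With values as deposited 6 of 21 rose and 2 fell, with a median of 0.19. Tchh, trichohyalin, which hardens the sheath, rose from 79.8 and 51.3 to 486 and 329 units (log2 difference 2.62 ± 0.58 SE, limma adjusted p = 0.0208), and the sheath keratin Krt73 from 395 and 245 to 1270 and 1040. Gata3, a regulator of sheath fate, rose from 180 and 157 to 364 and 392 units (adjusted p = 0.000639). With 1 library left out 3 to 7 members rose, 3 of them without the second untreated or the second 5-aza library and 4 without the first 5-aza library. Of 14 hair shaft keratins 4 rose, Krt36 from 9.27 and 6.89 to 50.9 and 42.7 units, Krt39, Krt84 and Krt35, and 2 or 3 rose with 1 library left out; their median was 0.87, and 0.12 with values as deposited, under which 1 of 12 rose. The other 10 did not pass, and for the shaft keratins Krt31, Krt33b and Krt81 the first 5-aza library was at 183, 84.9 and 54.0 units and the second at 116, 32.5 and 14.8. Of 35 keratin-associated proteins, which cross-link shaft keratins, 1 rose and 1 fell. In the list for basal and outer root sheath cells 4 of 28 genes rose and 2 fell, beside 11.8% and 18.1% of all tested genes; 1 rose and 1 fell without the second 5-aza library, 2 and 4 without the first, and 1 and 13 with values as deposited. Krt75, the keratin of the companion layer, rose from 152 and 163 to 693 and 829 units, and Krt17 from 804 and 830 to 1976 and 1413. Krt14 (844 and 885, then 687 and 490 units) and Krt5, keratins of basal cells, did not pass.

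Of 37 regulators of the matrix 9 rose and 7 fell, beside 11.8% and 18.1% of all tested genes, and 5 and 2 without the second 5-aza library; their median was 0.28, and -0.23 with values as deposited. Foxe1, a forkhead factor of hair follicle growth, rose from 32.7 and 44.4 to 165 and 265 units (limma adjusted p = 0.00298), and Dlx3, Msx2, Foxn1 and Lef1, factors of shaft and matrix differentiation, rose by less. Bcl11b, a zinc finger factor of epidermis, fell from 63.0 and 55.8 to 27.3 and 25.2 units (adjusted p = 0.000911), and Nfatc1, a factor of quiescent stem cells, from 9.11 and 7.73 to 1.93 and 1.43. Of 44 Wnt pathway genes 10 fell and 4 rose, beside 18.1% and 11.8% of all tested genes, and with values as deposited 21 of 36 fell and 0 rose by limma; the secreted inhibitors Dkk1 (5.94 and 4.54, then 0.559 and 0 units) and Dkk2 (22.2 and 19.7, then 3.66 and 2.35) were among the lower, and 4 fell without the first untreated or the second 5-aza library. Of 45 Hedgehog, BMP and Notch genes 18 fell and 6 rose, beside 18.1% and 11.8% of all tested genes. Hhip, Hey1 and Hey2 were lower by 4.63- to 4.97-fold, and Hhip stands on the dermal papilla list as well. Without the second 5-aza library 3 of these 45 fell, and without the first untreated library 6. Of 32 Hox genes tested 11 rose and none fell, Hoxb4 from 32.3 and 33.6 to 70.9 and 78.0 units (adjusted p = 0.000653); their median was 0.33, and -0.0088 with values as deposited, under which 1 rose and 5 fell. Without the second 5-aza library 5 rose, and without the second untreated library 7.

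Imprinted genes are expressed mainly from one parental copy. Of 49 tested 20 fell and 5 rose, with a median of -0.47, beside 18.1% and 11.8% of all tested genes. Mest fell from 39.3 and 33.1 to 6.98 and 2.05 units (limma adjusted p = 0.0092), Zim1 from 14.1 and 27 to 2.42 and 1.69, Ndn from 60.2 and 62.5 to 15.0 and 6.78, and Peg10 from 2.90 and 3.05 to 0.511 and 0.347. Rian and Meg3, noncoding RNAs of the Dlk1 locus, fell as well, and so did Dlk1 itself, a secreted growth inhibitor. H19 was at 121 and 160 and then 150 and 148 units and Igf2r at 201 and 204 and then 207 and 203, and neither passed. Nespas, the antisense RNA of the Gnas locus, rose from 22.6 and 17.2 to 57.3 and 73.9 units while Gnas fell from 84.4 and 92.3 to 58.6 and 50.0; the 2 overlap, and without a stated strand setting their reads cannot be told apart. Fibroblast markers fell beside these genes, and their part in this result was not tested. Leaving out 1 library left 11 to 16 imprinted genes that fell, 11 without the first untreated or the second 5-aza library.

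The genes that write, read and erase the mark had no large shift. Dnmt1, the maintenance methyltransferase that 5-aza traps, was at 139 and 145 units in untreated and 195 and 215 in 5-aza libraries, a log2 difference of 0.53 ± 0.08 (SE, limma adjusted p = 0.00664), but -0.025 with values as deposited. Its partner Uhrf1 was at 208 and 216 and then 246 and 271 units (adjusted p = 0.0633). The de novo enzymes Dnmt3a (24.8 and 19.9, then 21.2 and 15.4) and Dnmt3b (2.69 and 3.36, then 3.07 and 2.57) did not pass. Their relative Dnmt3l rose from 0.269 and 0.384 to 1.24 and 2.81 units (limma adjusted p = 0.0406), though an exon of it overlaps another gene. Of the TET genes Tet1 fell from 11 and 9.78 to 4.81 and 4.47 units (adjusted p = 0.00766), Tet2 did not pass (37.9 and 34.3, then 28.9 and 33.2), and Tet3 rose from 139 and 119 to 166 and 191 (adjusted p = 0.0194) but was at -0.077 on the log2 scale with values as deposited. Apobec1, a cytidine deaminase, rose from 3.19 and 6.27 to 14 and 18.9 units, and Zbtb4, a reader of methylated DNA, fell from 38.0 and 32.0 to 20.5 and 16.7. Of 31 genes tested 6 rose and 4 fell, with a median of 0.10; with values as deposited none rose and 18 fell, with a median of -0.40, and without the second 5-aza library 1 rose. Over all tested genes 11.8% rose and 18.1% fell in the main fit. Slc28a3, a carrier of nucleosides, had no read after 5-aza and 2.67 and 0.341 units before. Cda, the deaminase that clears cytidine analogues, had no read in the 4 libraries.

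Targets of the p53 damage response rose in part. Of 37 tested 18 rose and none fell, with a median of 0.62, which was -0.0042 with values as deposited, under which 5 rose and 8 fell. Eda2r, a death receptor of the TNF family, rose from 1.02 and 0.909 to 7.37 and 8.54 units, 8.26-fold (limma adjusted p = 0.00154), and was the one target with a large shift. Bbc3, which encodes the killer protein PUMA, rose from 7.34 and 7.45 to 32.1 and 25.3 units, and Sesn2, of the stress response, from 37.9 and 29.4 to 98.0 and 101. Mdm2, Ccng1, Zmat3 and Aen rose by 1.61- to 1.78-fold, and Cdkn1a, the cell cycle inhibitor p21, did not pass (71.2 and 48.1, then 103 and 106 units, adjusted p = 0.0639). Between 10 and 13 targets rose with 1 library left out, 10 without the second 5-aza library. Of 31 genes of the integrated stress response 10 rose and 1 fell, Cebpb from 218 and 284 to 895 and 810 units and Chac1, which degrades glutathione, from 7.55 and 7.86 to 19.3 and 15.5, while Atf4 (210 and 218, then 203 and 194) and Ddit3 did not pass; with values as deposited 2 rose and 10 fell. Of 47 proliferation genes 19 rose and 2, Pcna and Ccnb1, fell, but with values as deposited 1 rose and 19 fell, and without the second 5-aza library 5 rose. Cenpe, a kinetochore motor, went from 67.6 and 66.3 to 136 and 158 units and Mki67 from 600 and 690 to 1005 and 1326.

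RNAs without a poly(A) tail and ribosomal protein genes also differed. Of 66 replication-dependent histone genes, whose transcripts mostly lack a poly(A) tail, 31 fell and 7 rose; Hist1h2bn fell from 1649.9 and 1683 to 45.4 and 98.3 units while Hist2h2bb rose from 143 and 158 to 1532 and 1648. Of 11 other RNAs without a poly(A) tail 3 rose and 3 fell, beside 11.8% and 18.1% of all tested genes. Scarna13, a small Cajal body RNA, rose from 3.75 and 18.4 to 742 and 724 units. Rnu11, a small nuclear RNA, fell from 85.1 and 89.7 to 12.7 and 8.18 units. Hist2h2bb, Scarna13 and Rnu11 have an exon that overlaps another gene. Of 75 ribosomal protein genes 29 rose and 8 fell, 16 and 4 without the first 5-aza library, and with values as deposited 9 rose and 32 fell. Chtf8, which shares exon sequence with another gene, fell from 124 and 129 to 1.35 and 1.27 units in WT and from 128 and 119 to 1.37 and 0.978 in DKO. On chromosome X 120 of 456 protein-coding genes fell (26.3%) and 48 rose (10.5%), with a median of -0.25, where 18.3% of all protein-coding genes fell and 14.7% rose with a median of -0.06, beside the unlike sex-linked RNA of the libraries.

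The same contrast in DKO gave counts near those of WT, and the difference between the genotypes was tested directly. In DKO 2599 genes rose (12.1%) and 3092 fell (14.4%), 231 had a large shift higher (0.882%) and 1094 lower (4.18%). Of the 204 large shifts higher in WT, 95 were also found in DKO (46.6% of the WT set and 41.1% of the DKO set). Of the 1036 lower, 749 were also found in DKO (72.3% and 68.5%). Of the genes switched on, 65 in WT and 78 in DKO (0.298%), 3 were switched on in both (4.62% and 3.85%). Of those switched off, 221 and 203 (0.775%), 14 were switched off in both (6.33% and 6.90%). Of the protein-coding genes 2 were switched on in both, of 11 in WT and 8 in DKO (0.0482%). These small overlaps depend on the limit of 0.2 units, which 1 read can exceed. Rhox5 was at 0.340 and 0 units in untreated DKO, 1 and 0 reads, and at 11.6 and 16.2 after 5-aza. It was not counted as switched on in DKO but had a large shift higher there, as did Wdr74 and Dpep3. Both comparisons carry the same difference between the tables. The interaction (WT effect minus DKO effect) was called by limma for 0 of 21476 genes (0.0%), with 1145 genes (5.33%) at an unadjusted p under 0.05, and for 0 to 9 genes under the alternatives. Among genes without exon overlap the protein-coding sets overlapped by 39 genes, 66.1% of the 59 in WT and 61.9% of the 63 in DKO (0.582%). The interaction with the smallest p was that of Krt28, a sheath keratin, at 827 and 739 units in untreated WT and 1240 and 1388 after 5-aza, and at 20.6 and 29.5 in untreated DKO and 679 and 812 after 5-aza. Its adjusted p did not pass. The median of the hair shaft keratins was 0.87 in WT and -1.20 in DKO, with none of 14 called for the interaction.

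**Figure D5:**
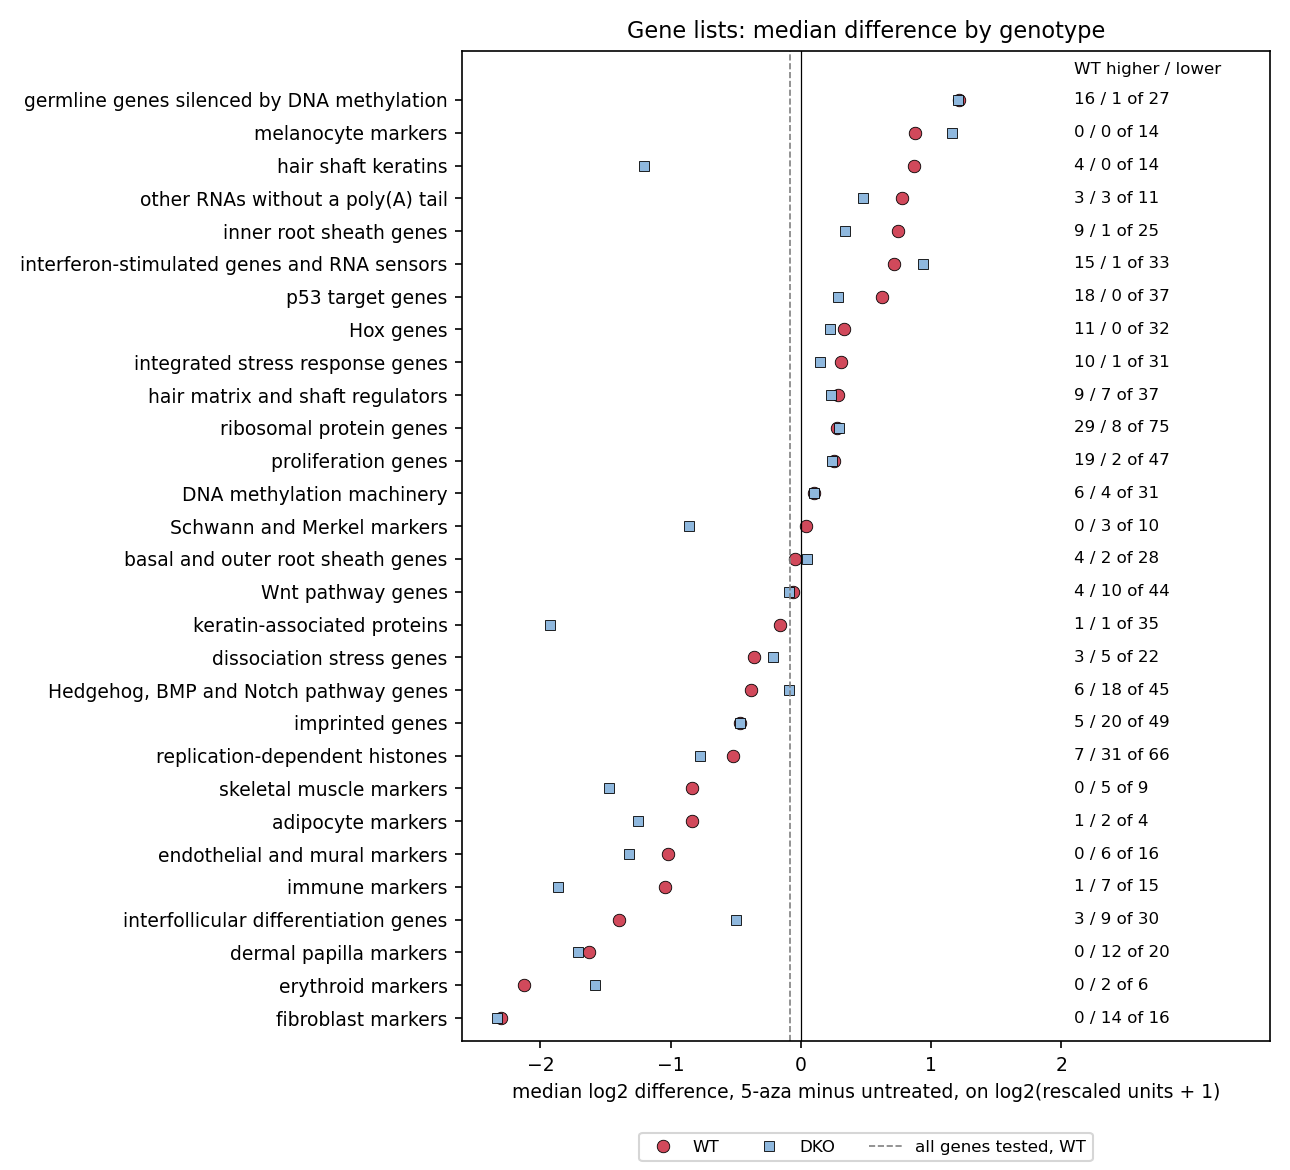
Median log2 difference, 5-aza minus untreated, of each gene list but the sex-linked one in WT (circles) and DKO (squares), with the WT numbers of genes that rose and fell out of those tested at the right and the median of all genes tested as a dashed line. Of the lists drawn, the germline list lies highest in WT at 1.22 and the fibroblast list lowest at -2.30; hair shaft keratins and keratin-associated proteins lie lower in DKO than in WT.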

How the data were processed

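RNA sequencing values of 8 libraries from sorted mouse hair matrix keratinocytes, 2 in each of 4 groups, were used. Per the submitters' processing notes, the tools were STAR, HTSeq, Trim Galore and DESeq2, with no version given, and mm10 and GRCm38 are listed as builds. The strand setting of the counting is not given in the sources used here. The authors deposited FPKM per gene in 2 tables, 1 for untreated and 1 for 5-aza libraries; the unit is read from the values, since value times the deposited length column (unit other, bases) is a whole multiple of 1 step per library within 0.001 reads. The reads behind each value follow from that step.

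The tables list 29647 and 29246 genes, and 26200 non-mitochondrial genes are in both. Exon overlap and gene types were read from GENCODE M21, in which 97.95% of the shared genes have the files' coordinates. Limma 3.58.1 in R 4.3.3 was fitted with a variance trend to log2(rescaled units + 1) over 4 groups and 8 libraries, with genes at 1 unit or more in at least 2 libraries, two-sided p-values and Benjamini-Hochberg adjustment at 0.05. On simulated data with 200 changed genes the test for WT recovered 94.7% of 4-fold and 41.7% of 2-fold changes over a mean of 20958 genes, with a mean of 17.7 false calls. The changed genes were taken from better covered ones, and the spread between simulated replicates was set low. No difference between tables, in sex or in cell content was simulated. These rates therefore do not carry over to these libraries, where Krt1 was at 1296 and 446 units in untreated WT. Members and lists were chosen with earlier results of these data known. Every list count stands beside the 11.8% that rose and 18.1% that fell over all tested genes. Genes were named by these rules: the 12 switched on and 6 switched off with the highest levels, the 8 large shifts each way with the widest gap, up to 4 called members per list, 7 genes of DNA methylation, and the 6 smallest interaction p-values; other genes are members of a list or were chosen after their values were seen. The Schwann and Merkel, erythroid, adipocyte, dissociation stress and sex-linked lists were also examined: 3 of 22 dissociation stress genes rose and 5 fell (with 1 library left out, 0 fell without the second 5-aza, 1 without the first untreated, 2 without the second untreated and 7 without the first 5-aza library), and of 6 sex-linked genes Tsix rose.

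RefSeq promoter windows within 1000 bases of the files' gene start exist for 70% of shared protein-coding genes, and for 6 of the 9 germline-list genes with a large shift higher, so a check of CpG content over that set is void and counts are given for single genes. No genome sequence was used.

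Same-numbered replicates did not deviate together: the correlation of their deviations was -0.0017 for untreated with 5-aza WT libraries and lay between -0.24 and 0.013 over the 4 pairs of groups. The alternatives were other scalings, pseudocounts and filters, each WT library left out, the 4 WT libraries alone, a replicate block, stricter shift rules and protein-coding genes without exon overlap. Some genes that the naming rules pick are not reported here.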

Additional observations from a re-analysis of the deposited data

Results flagged for a closer look

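The 5-aza table lists 3021 genes that the untreated table does not, and 112 of them were at 2 units or more in both WT 5-aza libraries. They were noted as signal outside the comparison, since no untreated value exists to set beside them. Of these, 2 are members of the germline list: Tuba3a, an alpha-tubulin of testis close in name to Tuba3b, at 49.1 and 34.0 units, and Taf7l, an X-linked transcription factor of germ cells, at 17.9 and 13.2. A gene missing from a table is not a gene at 0: in the other direction 387 of 3447 genes of the untreated table alone were at 2 units or more in both WT libraries.

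The summed level of the hair shaft keratins moved in opposite directions in the genotypes. It was 437 and 559 units in untreated WT libraries and 1197 and 739 after 5-aza, 1.94 times higher on average, and 2577 and 3819 units in untreated DKO libraries and 922 and 2197 after 5-aza, a ratio of 0.488. The difference between these sums was not tested.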

How the results depend on the processing

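With values as deposited, which are smaller so that 12307 genes passed the filter, 484 genes rose and 7843 fell in WT, 472 and 7767 in DKO, 27 large shifts were higher and 414 lower, 6 genes were switched on, 1 gene passed the interaction, and Dnmt1 (-0.025) and Tet3 (-0.077) changed sign. Leaving out 1 WT library gave 1129 to 1645 genes that rose, 1869 to 2645 that fell, 327 to 427 and 1256 to 1718 large shifts higher and lower, 111 to 213 switched on, 332 to 527 switched off and 0 to 1 interaction; a group with 1 library was assumed to vary like the others. The 4 WT libraries alone gave 1667 and 2507. The stricter rules left 102 large shifts higher, 647 lower, 30 on and 100 off. Protein-coding genes without exon overlap, chosen after seeing the data, gave 1537 and 2075 in WT, 1625 and 1675 in DKO, 59 and 149 large shifts, 8 on, 21 off and 1 interaction. The interaction held 9 genes at a pseudocount of 0.1 and 1 with median-ratio scaling. The replicate block, in which the numbers are only names, gave 1918 and 2978 genes. In the other settings the counts stayed within 1.5 times. Of the named genes called in WT, 149 were fitted under median-ratio scaling and 147 stayed called, and 107 of 149 did without the second 5-aza library. For genes with 1 to 3 reads in a group the depth does not give the size of a difference.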
